A study of Homo sapiens with 8 samples.

Results

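Amino acids cross the plasma membrane through carrier proteins of several solute carrier (SLC) families. Described here are 10 of these carrier genes across 8 RNA sequencing libraries of MCF-10A, a human breast epithelial cell line whose parental cells do not form tumours. The genes are SLC7A11, SLC7A5, SLC3A2, SLC7A1, SLC1A5, SLC1A4, SLC38A1, SLC38A2, SLC6A9 and SLC43A1. They were taken by matching these symbols to Ensembl identifiers, and all 10 were found among the 60617 genes of the deposited count table and passed the filter on low counts. Cells labelled Empty and cells labelled NeuT, both MCF-10A, were either left untreated or given 1 µM JG-98, a small-molecule inhibitor of Hsp70 chaperones, for 12 h. Each of the 4 groups (untreated Empty, JG-98-treated Empty, untreated NeuT and JG-98-treated NeuT) had 2 libraries. What distinguishes NeuT from Empty cells, which promoter drives it and whether each line is a single clone are not given in the sources used here. They name no vehicle in the untreated groups. All cells grew in medium with horse serum, epidermal growth factor, insulin, hydrocortisone, cholera toxin, L-glutamine and L-alanyl-L-glutamine. The series' stated purpose was to compare sensitivity to JG-98 in transformed cells, and its title concerns how the kinase HRI phosphorylates eIF2α, a factor that starts translation.

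Several of these carriers work as exchangers, so that uptake of one amino acid is paid for by release of another. SLC7A11 (xCT) imports cystine in exchange for glutamate and SLC7A5 (LAT1) imports leucine and other large neutral amino acids; each is a light chain that reaches the membrane joined to the heavy chain SLC3A2 (CD98). When eIF2α is phosphorylated, general translation falls while the transcription factor ATF4 is made, and ATF4 with C/EBP-family partners binds composite elements in genes for amino acid uptake and synthesis. SLC7A11 is also a well-known target of NRF2, which binds antioxidant response elements.

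The promoter sequences were searched because these 2 elements are the best-known routes from stress signalling to this gene family. RefSeq promoter windows (GRCh38.p14) reach from 250 bases before to 50 bases after a transcript start, 300 bases in all, and 16 such windows matched 9 of the 10 genes; SLC7A11 was not among those matched. The core of the C/EBP-ATF response element was searched as TGATGNAA on both strands, where N is any base. It was found in 5 of the 16 windows, in 5 of the 9 genes, and in 3.62% of all 35116 promoter windows of the same length (4.46% of 27305 genes). The 30 bases around each match follow, 5′ to 3′ on the gene's own strand, with the match in capitals.
SLC1A4: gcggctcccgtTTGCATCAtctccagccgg
SLC3A2: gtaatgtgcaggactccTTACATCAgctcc
SLC38A1: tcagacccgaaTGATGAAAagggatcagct
SLC7A1: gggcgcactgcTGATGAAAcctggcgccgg
SLC1A5: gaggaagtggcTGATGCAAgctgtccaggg
The SLC1A4 stretch lies at chr2:64989381-64989410 on the plus strand and SLC3A2's at chr11:62881719-62881748 on the plus strand; in both the element reads on the opposite strand. Those of SLC38A1 (chr12:46266502-46266531), SLC7A1 (chr13:29595663-29595692) and SLC1A5 (chr19:46784893-46784922) are on the minus strand and read in the gene's direction. The matches of SLC1A4 and SLC38A1 span the transcript start. Those of SLC3A2 and SLC7A1 begin 38 and 8 bases into the transcript, and that of SLC1A5 begins 97 bases before the start. The transcripts of SLC1A4, SLC3A2, SLC38A1 and SLC1A5 used here begin inside the gene's interval in the count table.

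The core of the antioxidant response element was searched as TGACNNNGC, also on both strands. It was found in 4 of the 16 windows, in 4 of the 9 genes, and in 13.3% of all windows (16.1% of genes). The 30 bases around each match are given in the same way.
SLC3A2: acgagggtgggTGACTCAGCgtcctccttc
SLC7A1: gtgcccggcggTGACGCGGCcgagcgggcc
SLC7A5: ggcggggttccTGACGCAGCtgcgggcggc
SLC1A5: tcctggatcttGCGAGGTCAgctcccgctc
These stretches lie at chr11:62881651-62881680 on the plus strand (SLC3A2) and, on the minus strand, at chr13:29595755-29595784 (SLC7A1), chr16:87869491-87869520 (SLC7A5) and chr19:46787386-46787415 (SLC1A5). The SLC3A2 match begins 37 bases before the transcript start and also spells the AP-1 site TGACTCA. The match of SLC7A1 begins 85 bases and that of SLC7A5 begins 2 bases before the start; SLC1A5's begins 111 bases before another of its transcript starts and reads on the opposite strand. No match of either motif overlapped one of the other. A match is a stretch of letters and no evidence of binding, and the windows of SLC38A2, SLC6A9 and SLC43A1 held neither set of letters.

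Total counts were 55050996 to 56861971 in 7 libraries and 37341458 in treated Empty replicate 1. Levels are counts per 1000000 counts of a library (CPM) after scaling by TMM, a factor that aligns the bulk of genes between libraries, and 17693 genes with enough counts were tested. Called, in what follows, means that the Benjamini-Hochberg adjusted p-value of edgeR's quasi-likelihood test over all tested genes was under 0.05. The labels do not say whether the 2 libraries of a group came from separate cultures, so p-values measure the spread between libraries, which may be technical. All 8 epithelial and basal markers examined were above 1 CPM in every library, with summed levels of 17583 to 18245 CPM in Empty and 20552 to 21247 CPM in NeuT. The 11 markers of other cell types summed to 18.5 to 22.9 CPM in Empty and 15.3 to 17.3 CPM in NeuT. Of these, MYH11, LALBA and CSN2 had 0 counts in every library, and COL1A1 and PECAM1 were above 1 CPM in each. In the treated NeuT group, replicate 2 stood above replicate 1 for 9 of 9 carriers (all but SLC43A1), by 1.16 to 1.6 times with a median of 1.20, where the median over 17201 genes was 1.00. The part of this gap in the results was not tested; for these 9 carriers, values without either library are given where they change a call or a sign or move a value by over 1.5 times.

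**Figure D1:**
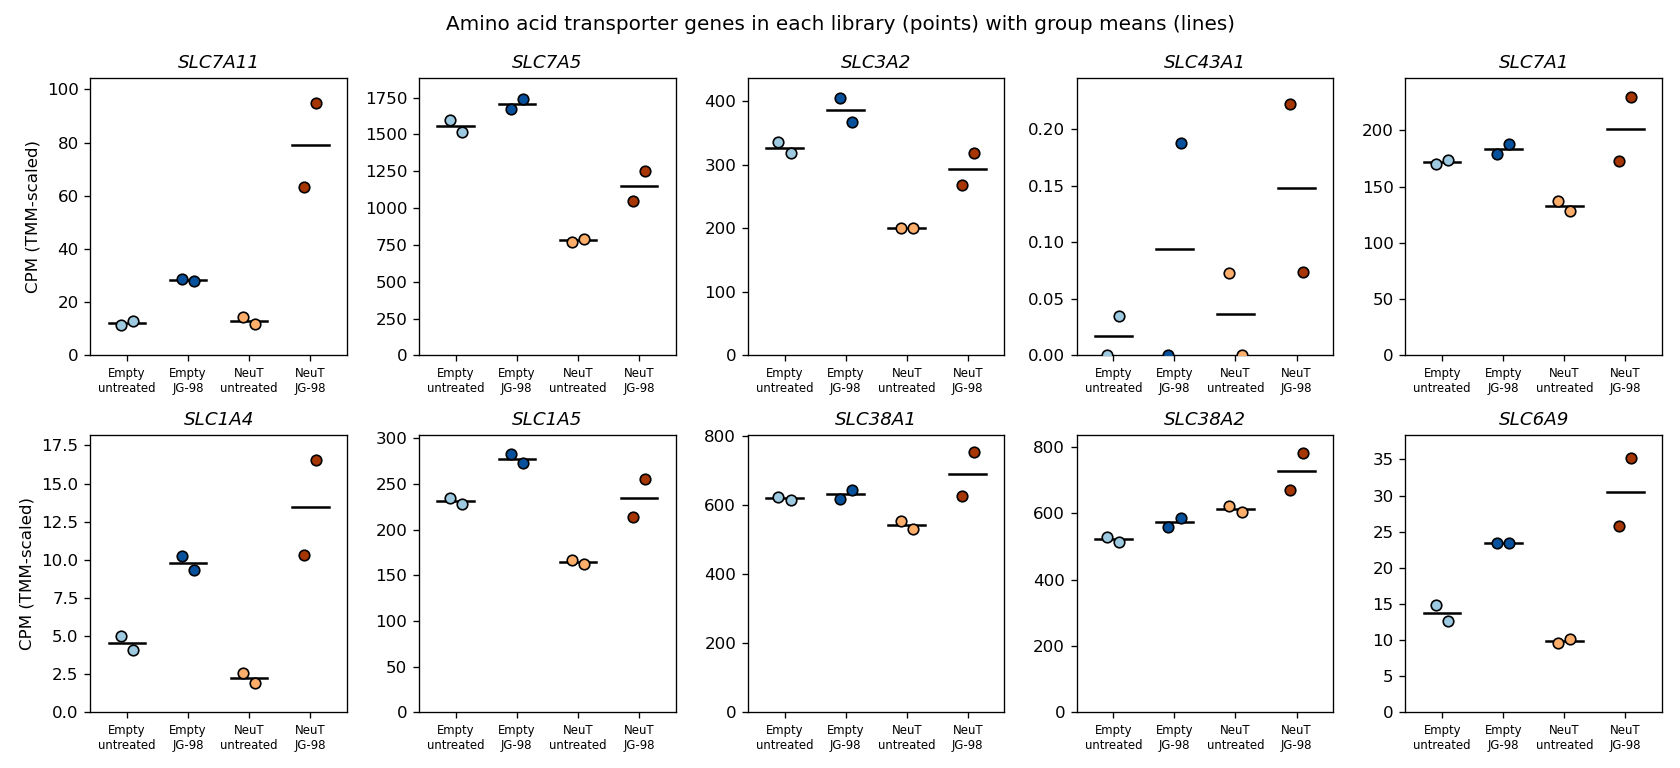
TMM-scaled CPM (vertical axes, each from 0) of the 10 carrier genes in the 4 groups (horizontal axes), with a point per library and a line at the mean of the 2 libraries. SLC7A11, SLC1A4 and SLC6A9 stood higher in all 4 treated libraries than in all 4 untreated ones, and SLC43A1 stayed at or below 0.222 CPM.

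After JG-98, 9 of the 10 carrier genes were called higher in NeuT cells, and SLC6A9 alone was called higher in Empty cells. In Empty the fitted rises of SLC7A11 (2.35-fold) and SLC1A4 (2.14-fold) were larger than that of SLC6A9 (1.70-fold) but were not called. The NeuT rises ranged from 1.19-fold (SLC38A2) to 6.08-fold (SLC7A11), and the 3 largest were those of SLC7A11, SLC1A4 and SLC6A9, the genes with the lowest untreated levels apart from SLC43A1. Over the 9 genes other than SLC43A1 the median log2 change was 0.56 in NeuT and 0.24 in Empty, beside medians of 0.0002 and -0.0033 over all tested genes. Among all tested genes 2.01% were called higher and 1.01% called lower in NeuT, against 9 and 0 of the 10 carriers. In Empty 0.260% were called higher and 0.0791% lower, against 1 and 0 of the carriers. The carriers were chosen with earlier results of these data known, so setting them beside these shares does not test the gene family. The sequencing was of bulk RNA, in which fewer cells of a type and less RNA per cell cannot be told apart.

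SLC7A11 (ENSG00000151012, chromosome 4, 138164097 to 138242349, minus strand) supplies cystine, the precursor of cysteine for glutathione. It held 11.3 and 12.8 CPM in untreated Empty and 14.4 and 11.7 CPM in untreated NeuT. With JG-98 it held 28.6 and 28.1 CPM in Empty and 63.4 and 94.9 CPM in NeuT. The untreated lines overlapped, every treated library stood above every untreated one, and the treated lines were apart. The rise in NeuT was 6.08-fold (log2 2.60, SE 0.213, edgeR adjusted p = 0.00244). In Empty the fitted change was 2.35-fold (log2 1.23, SE 0.216) and was not called (edgeR adjusted p = 0.142). DESeq2 (adjusted p = 0.0001) and limma-voom (adjusted p = 0.0171) called it, and the authors' deposited table gives it an adjusted p of 0.00846. A fit of the 4 Empty libraries alone called it too (edgeR adjusted p = 4e-07), and 5 of 13 alternative fits did so. Of its exonic bases, 8.97% lie opposite SLC7A11-AS1, which had 0 to 3 counts per library.

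SLC7A5 (ENSG00000103257, chromosome 16, 87830023 to 87869507, minus strand), the leucine importer, was the highest of the 10 carriers in every library. Empty cells held 1597 and 1518 CPM untreated and 1674 and 1742 CPM treated. NeuT cells held 771 and 789 CPM untreated and 1046 and 1254 CPM treated. All Empty libraries stood above all NeuT libraries, treated or not. Its rise with the drug in NeuT was 1.47-fold (log2 0.56, SE 0.0694, edgeR adjusted p = 0.00027), and the change in Empty was log2 0.13 (SE 0.0691, edgeR adjusted p = 0.561). The near-identical pseudogene SLC7A5P1 had 23 to 86 counts per library, and SLC7A5P2 had 0, beside at least 42206 for SLC7A5.

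SLC3A2 (ENSG00000168003, chromosome 11, 62856102 to 62888875, plus strand), the heavy chain, held 335 and 319 CPM in untreated and 405 and 368 CPM in treated Empty cells. In NeuT it held 201 and 200 CPM untreated and 269 and 319 CPM treated. Treated libraries were above untreated ones within each line, and the treated NeuT libraries did not exceed untreated Empty. SLC3A2 rose 1.47-fold in NeuT (log2 0.55, SE 0.0720, edgeR adjusted p = 0.00046), and the change in Empty was log2 0.24 (SE 0.0715, edgeR adjusted p = 0.229).

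To set the light chains against the heavy chain they need, CPM was divided by exon length in kb and summed over 6 light-chain genes (SLC7A5, SLC7A6, SLC7A7, SLC7A8, SLC7A10 and SLC7A11). Light-chain RNA per kb was 5.30 times SLC3A2 in each untreated Empty library and 4.60 and 5.27 times in the treated ones. In NeuT it was 4.36 and 4.46 times untreated and 4.45 and 4.52 times treated. The 4 NeuT libraries thus lay between 4.36 and 4.52, while SLC7A5, SLC7A11 and SLC3A2 each rose there with the drug. Of the exonic bases of SLC7A6, 55.6% are shared with other genes. SLC7A5 made up 94.6% to 97.7% of the light-chain sum in every library. SLC7A11's part was 0.341% and 0.408% in untreated and 0.824% and 0.777% in treated Empty. In NeuT it was 0.881% and 0.703% untreated and 2.84% and 3.54% treated.

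SLC7A1 (ENSG00000139514, chromosome 13, 29509414 to 29595688, minus strand) encodes CAT1, which carries arginine and lysine and needs no heavy chain. Its levels were 170 and 174 CPM in untreated and 179 and 188 CPM in treated Empty, and 137 and 128 CPM in untreated and 173 and 229 CPM in treated NeuT. Treated NeuT libraries were the most spread of these pairs. SLC7A1 rose 1.52-fold in NeuT (log2 0.60, SE 0.108, edgeR adjusted p = 0.0187), and the change in Empty was log2 0.09 (SE 0.108, edgeR adjusted p = 0.849). The NeuT call was lost without untreated NeuT replicate 1 (log2 0.65, adjusted p = 0.081) and without replicate 2 (log2 0.55, adjusted p = 0.151), and in a fit of the 4 NeuT libraries alone (adjusted p = 0.0836). Without treated NeuT replicate 2 the change was log2 0.38.

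SLC1A4 and SLC1A5 encode ASCT1 and ASCT2, sodium-dependent exchangers of alanine, serine and cysteine, of which ASCT2 is also a main route for glutamine. SLC1A4 (ENSG00000115902, chromosome 2, 64988477 to 65023865, plus strand) was the lower of the pair, with 5.04 and 4.07 CPM in untreated Empty and 2.56 and 1.91 CPM in untreated NeuT. With JG-98 it reached 10.2 and 9.31 CPM in Empty and 10.3 and 16.6 CPM in NeuT. The untreated lines were apart, while the treated lines were separated by a narrow gap between their nearest libraries and their difference was not called (edgeR adjusted p = 0.0929). The rise in NeuT was 6.01-fold (log2 2.59, SE 0.232, edgeR adjusted p = 0.00021). In Empty the fitted change was 2.14-fold (log2 1.10, SE 0.217, edgeR adjusted p = 0.0878). DESeq2 called it (adjusted p = 6.9e-05), limma-voom did not, and the authors' deposited table gives an adjusted p of 0.0436. A fit of the 4 Empty libraries alone called it too (edgeR adjusted p = 0.00017), and 5 of 13 alternative fits did so.

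SLC1A5 (ENSG00000105281, chromosome 19, 46774883 to 46788594, minus strand) held 234 and 228 CPM in untreated and 283 and 273 CPM in treated Empty. NeuT cells held 167 and 163 CPM untreated and 213 and 255 CPM treated. Within each line the treated libraries stood above the untreated ones. SLC1A5 rose 1.42-fold in NeuT (log2 0.51, SE 0.0689, edgeR adjusted p = 0.00051), and the change in Empty was log2 0.27 (SE 0.0685, edgeR adjusted p = 0.148). An unnamed gene with 0 to 20 counts per library lies opposite 780 of its exonic bases, and without known strand use such reads cannot be told apart.

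SLC38A1 and SLC38A2 encode SNAT1 and SNAT2, sodium-coupled carriers of glutamine, alanine and other small neutral amino acids, and lie 88.2 kb apart on chromosome 12. SLC38A1 (ENSG00000111371, 46183063 to 46270017, minus strand) held 626 and 616 CPM in untreated and 619 and 644 CPM in treated Empty, which overlapped. NeuT cells held 554 and 532 CPM untreated and 628 and 754 CPM treated. SLC38A1 rose 1.27-fold in NeuT (log2 0.35, SE 0.0687, edgeR adjusted p = 0.0106), and the change in Empty was log2 0.03 (SE 0.0686, edgeR adjusted p = 0.951). That NeuT call was lost without untreated NeuT replicate 1 (adjusted p = 0.102) or 2 (adjusted p = 0.224) and in a fit of the 4 NeuT libraries alone (adjusted p = 0.0887), and the change was log2 0.20 without treated NeuT replicate 2.

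SLC38A2 (ENSG00000134294, 46358188 to 46372773, minus strand), long known to respond to amino acid shortage, held 530 and 514 CPM in untreated and 559 and 587 CPM in treated Empty. NeuT libraries held 622 and 603 CPM untreated and 671 and 782 CPM treated. It was the one carrier whose NeuT libraries all stood above its Empty libraries. The rise in NeuT, 1.19-fold (log2 0.25, SE 0.0638, edgeR adjusted p = 0.0460), was just past the threshold, and in Empty the change was log2 0.13 (SE 0.0638, edgeR adjusted p = 0.510). The NeuT call was lost with median-of-ratios (RLE) scaling (adjusted p = 0.0565), without robust estimation (0.0605), with limma-voom (0.0537), in a fit of the 4 NeuT libraries alone (0.169), without untreated NeuT replicate 1 (0.245) or 2 (0.436), and without treated NeuT replicate 2 (0.271), where the change was log2 0.12.

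SLC6A9 (ENSG00000196517, chromosome 1, 43991500 to 44031467, minus strand) encodes the glycine carrier GLYT1. Untreated libraries held 14.9 and 12.7 CPM in Empty and 9.63 and 10.1 CPM in NeuT. Treated libraries held 23.5 and 23.4 CPM in Empty and 25.8 and 35.2 CPM in NeuT. The order of the lines was opposite with and without the drug. In the main edgeR fit SLC6A9 was the only one of the 10 called in both lines. It rose 1.70-fold in Empty (log2 0.77, SE 0.127, edgeR adjusted p = 0.0161) and 3.08-fold in NeuT (log2 1.63, SE 0.129, edgeR adjusted p = 8.4e-06). The authors' deposited table has SLC7A11 and SLC1A4 under 0.05 in both lines as well, and DESeq2 called these genes in both. The Empty call was lost without untreated Empty replicate 1 (adjusted p = 0.0564) or 2 (0.296) and without treated Empty replicate 1 (0.281) or 2 (0.122), with log2 changes of 0.65 to 0.89. CCDC24 lies opposite 8.01% of its exonic bases and had 194 to 381 counts per library, beside at least 527 for SLC6A9.

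SLC43A1 (ENSG00000149150, chromosome 11, 57484534 to 57515780, minus strand), a facilitated carrier of large neutral amino acids also called LAT3, was near the limit of detection. It had 0 and 2 counts in untreated Empty, 0 and 11 in treated Empty, 4 and 0 in untreated NeuT and 12 and 4 in treated NeuT. A library with 0 counts allows up to 3, which is 0.0511 to 0.0787 CPM across libraries and covers counting error only. The gene passed the filter through its treated libraries and was called in no comparison, and no fold is given for it.

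**Figure D2:**
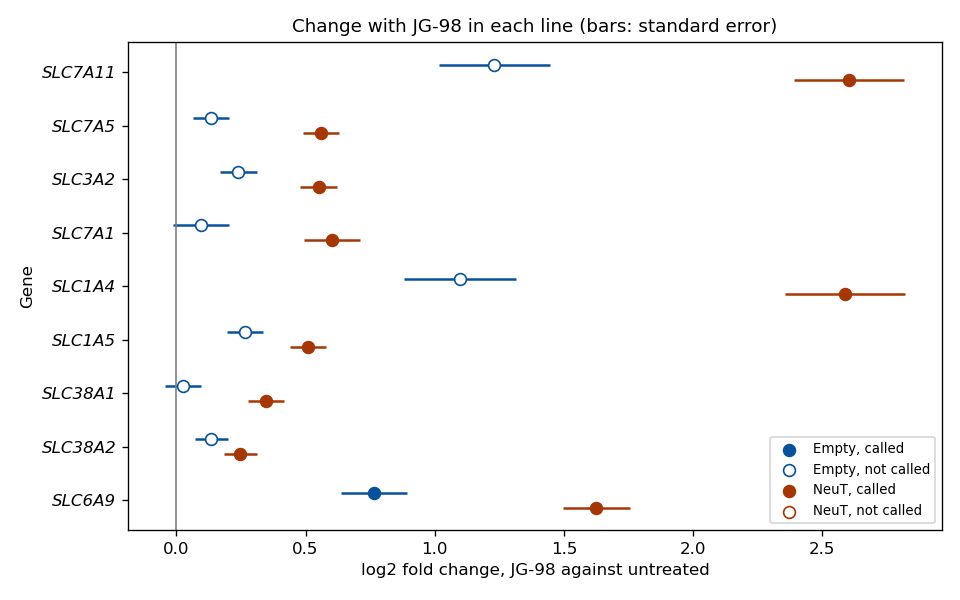
Log2 fold change with JG-98 (horizontal axis) for 9 carrier genes (vertical axis) in Empty (blue) and NeuT (red), with the standard error as a bar; filled points passed an edgeR adjusted p of 0.05. All 9 points are filled in NeuT and SLC6A9 alone is filled in Empty.

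Whether the drug's change differed between the lines was tested directly as an interaction, the change in NeuT minus the change in Empty. The fitted difference was positive for 9 of 9 genes, from log2 0.11 (SLC38A2, SE 0.0902) to 1.49 (SLC1A4, SE 0.318), with a median of 0.43. SLC7A11 had 1.37 (SE 0.30), SLC6A9 0.86 (SE 0.180), SLC7A1 0.51 (SE 0.153) and SLC7A5 0.43 (SE 0.0978). None of the 10 was called by edgeR, where 0.00565% of all tested genes were called, and the lowest adjusted p among the carriers was 0.296 (SLC6A9). At an unadjusted p under 0.05 the count was 8 of 10, beside 7.79% of all tested genes; the same 2 drug comparisons enter every one of these differences. DESeq2 called 3 (SLC1A4, adjusted p = 0.00182; SLC6A9, 0.0170; SLC7A11, 0.0431) among 19 of all genes, and without a filter on low counts edgeR called 7 among 138. Without treated NeuT replicate 1 edgeR called 8 of the carriers among 777 of all genes, and without treated NeuT replicate 2 it called SLC7A11 alone among 15. Without that replicate 2 the difference of SLC38A2 changed sign (log2 -0.016), so that 8 of 9 were positive, and without replicate 1 it was log2 0.21. Those of SLC1A5 (0.24 to 0.095), SLC7A1 (0.51 to 0.28), SLC3A2 (0.31 to 0.17), SLC38A1 (0.32 to 0.17) and SLC7A5 (0.43 to 0.28) shrank by over 1.5 times.

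Before treatment the carriers were mostly lower in NeuT than in Empty. Of the 10, 7 were called lower in untreated NeuT and SLC38A2 was called higher, while 20.8% of all tested genes were called lower and 21.2% higher. The median log2 difference over 9 genes was -0.48, beside -0.0156 over all tested genes. SLC1A4 was 2.03-fold lower (log2 -1.02, SE 0.245, edgeR adjusted p = 0.00617), SLC7A5 2.0-fold lower (log2 -1.0, SE 0.0698, edgeR adjusted p = 1.1e-08) and its heavy chain SLC3A2 1.63-fold lower (log2 -0.71, SE 0.0720, edgeR adjusted p = 9.6e-07). SLC1A5 (log2 -0.49, SE 0.0689), SLC6A9 (log2 -0.48, SE 0.132), SLC7A1 (log2 -0.38, SE 0.108) and SLC38A1 (log2 -0.19, SE 0.0686) were also lower, and SLC38A2 was 1.17-fold higher (log2 0.23, SE 0.0638). Their edgeR adjusted p-values were 2.3e-05, 0.00888, 0.0187, 0.0326 and 0.00768 in that order. SLC7A11 did not pass the test (log2 0.11, SE 0.224, edgeR adjusted p = 0.739), and its sign changed without untreated NeuT replicate 1 (log2 -0.034).

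Each of the 4 untreated libraries left out left 5 calls among the carriers, and the calls among all tested genes went from 7423 to between 5461 and 5583. The calls of SLC7A5, SLC3A2 and SLC1A5 held each time. SLC38A1's call was lost without any one of the 4 (adjusted p of 0.104 to 0.260) and SLC7A1's without Empty replicate 1 (0.0557), Empty replicate 2 (0.0699) or NeuT replicate 2 (0.109). That of SLC6A9 was lost without replicate 1 of Empty (0.101) or NeuT (0.0787), that of SLC38A2 without Empty replicate 2 (0.0845) or NeuT replicate 1 (0.0674), and that of SLC1A4 without NeuT replicate 2 (0.0560). Scaled by total counts alone, 40.7% of all calls between the untreated lines were higher in NeuT, against 50.5%, and under JG-98 41.0% against 52.0%; the signs of the 9 carriers were the same under both scalings.

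Under JG-98 the lines differed in both directions. SLC7A11 was 2.79-fold higher in NeuT (log2 1.48, SE 0.202, edgeR adjusted p = 0.00134), SLC6A9 1.30-fold higher (log2 0.38, SE 0.123, edgeR adjusted p = 0.0224) and SLC38A2 1.27-fold higher (log2 0.34, SE 0.0638, edgeR adjusted p = 0.00034). SLC7A5 was 1.49-fold lower (log2 -0.57, SE 0.0693, edgeR adjusted p = 6e-06), SLC3A2 1.32-fold lower (log2 -0.40, SE 0.0716, edgeR adjusted p = 0.00032) and SLC1A5 1.19-fold lower (log2 -0.25, SE 0.0686, edgeR adjusted p = 0.00809). These 3 and 3 calls stand beside 21.7% of all tested genes called higher and 20.0% lower. SLC1A4 (log2 0.46, SE 0.203), SLC7A1 (log2 0.13, SE 0.108) and SLC38A1 (log2 0.13, SE 0.0686) did not pass, with edgeR adjusted p-values of 0.0929, 0.377 and 0.15. Of 13 alternative fits, 2 called SLC1A4, 1 called SLC7A1 and 1 called SLC38A1. A gene's drug changes and its line differences share libraries, so they are given side by side and no relation between them was tested.

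The call of SLC6A9 under JG-98 was lost with total counts (adjusted p = 0.0510), without treated Empty replicate 1 (0.105) or 2 (0.109) and without treated NeuT replicate 2 (0.337), where the difference was log2 0.14. That of SLC1A5 was lost without treated Empty replicate 1 (0.0687) or treated NeuT replicate 1 (0.0869), where it was log2 -0.22 and -0.12. Without treated NeuT replicate 1, SLC7A1 (log2 0.33), SLC1A4 (log2 0.77) and SLC38A1 (log2 0.26) were called higher in NeuT. Without treated NeuT replicate 2 these 3 differences were log2 -0.087, 0.087 and -0.0069, none of them called, so that SLC7A1 and SLC38A1 changed sign. SLC6A9 stood at log2 0.59 without treated NeuT replicate 1, and SLC1A5 at log2 -0.38 without replicate 2.

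**Figure D3:**
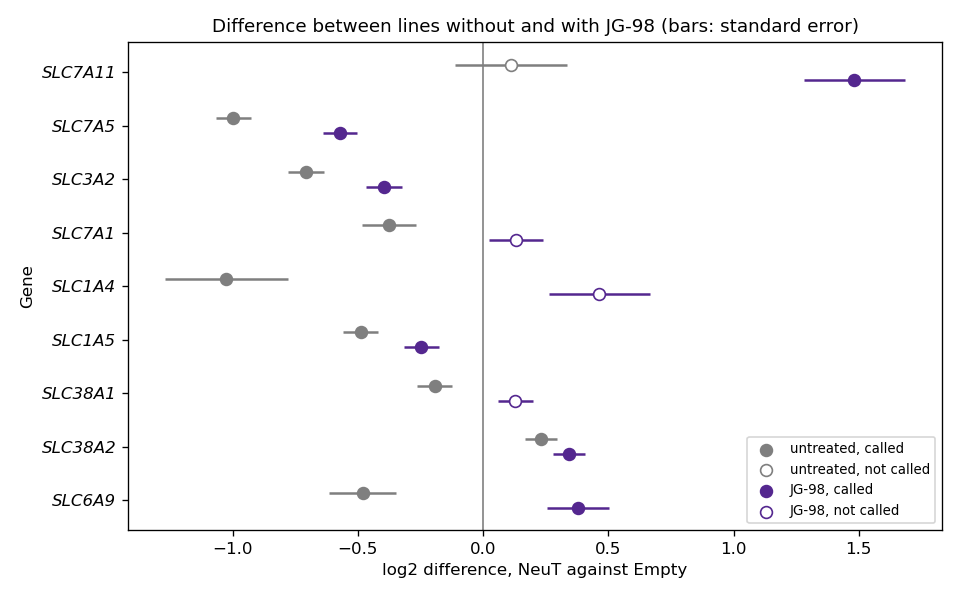
Log2 difference of NeuT against Empty (horizontal axis) for 9 carrier genes (vertical axis), untreated (grey) and under JG-98 (purple), with the standard error as a bar; filled points passed an edgeR adjusted p of 0.05. SLC7A5, SLC3A2 and SLC1A5 lie below 0 in both, and SLC7A11 lies at 0.11 untreated and 1.48 under JG-98.

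Levels can be compared between genes only per exon length, in CPM per kb. In untreated Empty the order was SLC7A5 (327 ± 11.7; SD, n = 2 here and below), SLC38A2 (80.2 ± 1.75), SLC1A5 (69.3 ± 1.45), SLC3A2 (63.2 ± 2.25), SLC38A1 (62.0 ± 0.668), SLC7A1 (22.4 ± 0.291), SLC6A9 (2.67 ± 0.303), SLC7A11 (1.25 ± 0.114) and SLC1A4 (0.656 ± 0.0989). SLC3A2 and SLC38A1 differed by less than their spread there. Treated Empty had the same order, with SLC38A2 (88.1 ± 3.01) next above SLC1A5 (83.4 ± 2.08). In untreated NeuT SLC7A5 (164 ± 2.62) and SLC38A2 (94.1 ± 2.0) were followed by SLC38A1 (54.2 ± 1.5), SLC1A5 (49.4 ± 0.797) and SLC3A2 (38.7 ± 0.104). In treated NeuT the order was SLC7A5 (241 ± 30.9), SLC38A2 (112 ± 12.0), SLC1A5 (70.3 ± 8.85), SLC38A1 (69.0 ± 8.86), SLC3A2 (56.7 ± 6.79), SLC7A1 (26.2 ± 5.20), SLC7A11 (8.21 ± 2.31), SLC6A9 (5.91 ± 1.30) and SLC1A4 (1.94 ± 0.633). SLC1A5 and SLC38A1 differed by less than their spread there, and the means of SLC7A11 and SLC6A9, in the reverse of their order in untreated Empty, differed by less than the SD of SLC7A11. SLC7A5 ranked 86 of 17693 tested genes by this measure in untreated Empty and 245 in untreated NeuT, and SLC7A11 moved from rank 10436 to 4979 in NeuT with the drug.

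**Figure D4:**
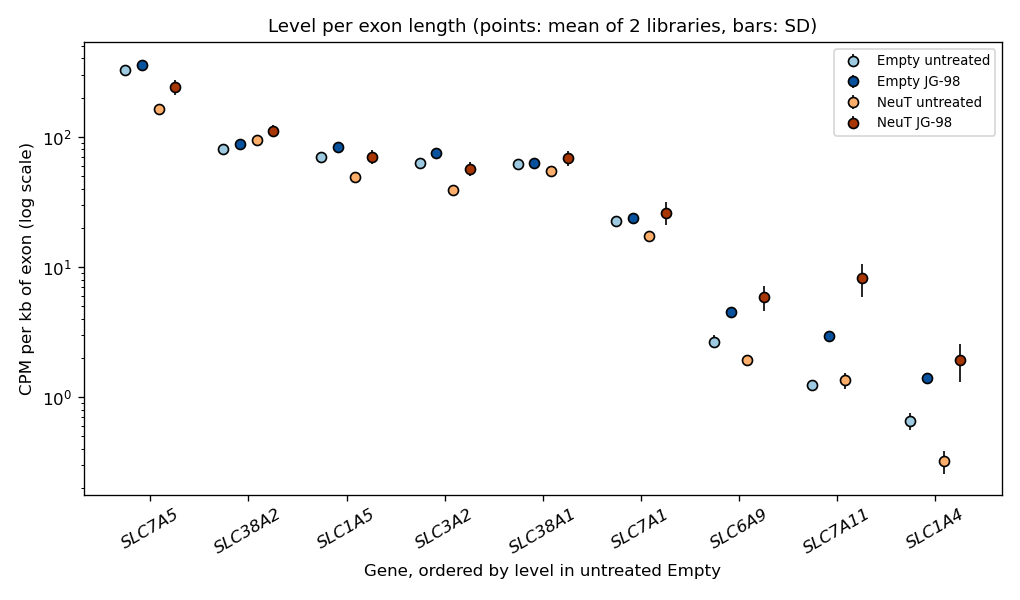
CPM per kb of exon (vertical axis, log scale) for 9 carrier genes in the 4 groups, as the mean of 2 libraries with the SD as a bar, ordered by the level in untreated Empty. SLC7A5 is highest in each group, and the 3 lowest genes (SLC6A9, SLC7A11 and SLC1A4) show the widest gaps between treated and untreated.

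Other amino acid carriers, listed by where they sit in the cell, were examined beside the 10. With 0.260% of all tested genes called higher and 0.0791% lower in Empty, and 2.01% higher and 1.01% lower in NeuT, few or no calls are near the background for lists of this size. Of 26 further plasma membrane carriers 11 were tested and none was called with JG-98 in either line (median log2 -0.0035 in Empty and -0.0779 in NeuT). Of 10 lysosomal carriers 8 were tested and none was called in either line (medians -0.0427 and -0.0402). Of 12 mitochondrial carriers 11 were tested; SFXN1, a serine carrier of the inner membrane, fell by 0.25 on the log2 scale in NeuT (SE 0.0633, edgeR adjusted p = 0.0427) and no other was called in either line (medians -0.1028 and -0.1330). SFXN1 held 168 and 169 CPM in untreated and 150 and 135 CPM in treated NeuT, which did not overlap.

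Called changes among factors of the amino acid response and genes of glutathione and cysteine use were mostly rises; these genes and SFXN1 were not refitted with libraries left out. Of 14 response factors, 4 rose in Empty and 7 rose in NeuT, where 1 fell (medians log2 0.21 and 0.51), beside 0.260% of all tested genes called higher in Empty and 2.01% higher and 1.01% lower in NeuT. ATF4, the central factor, rose from 249 and 237 to 356 and 334 CPM in Empty (1.42-fold, SE 0.0818 on the log2 scale, edgeR adjusted p = 0.0157) and from 110 and 111 to 249 and 310 CPM in NeuT (2.53-fold, SE 0.0838, edgeR adjusted p = 1.7e-06). As with SLC7A5, untreated NeuT stood below untreated Empty, by 2.20-fold (log2 -1.14, SE 0.0835, edgeR adjusted p = 9.4e-08). DDIT3 (CHOP), a stress factor induced by ATF4, had 1.80 and 1.79 CPM untreated and 4.62 and 4.42 CPM treated in Empty, and 2.32 and 2.17 against 11.4 and 15.8 CPM in NeuT. It rose 2.51-fold in Empty (edgeR adjusted p = 0.00156) and 6.05-fold in NeuT (edgeR adjusted p = 1.6e-07), and 39.6% of its exonic bases are shared with other genes.

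NUPR1, a small stress-induced chromatin protein, had the largest fitted rise of the response factors in NeuT, from 7.77 and 9.07 to 43.3 and 60.0 CPM (6.13-fold, edgeR adjusted p = 1.3e-05). The log2 changes of NUPR1 (2.62, SE 0.155) and DDIT3 (2.60, SE 0.163) there differed by less than either SE. ATF5, a factor related to ATF4, fell from 49.4 and 46.4 to 39.0 and 39.0 CPM in NeuT (by 0.30 on the log2 scale, edgeR adjusted p = 0.0288), and 22.1% of its exonic bases are shared with other genes. Of 10 genes of glutathione and cysteine use 8 were tested; CTH rose in both lines and CHAC1 in NeuT, beside the same shares of all tested genes, and the medians were log2 0.12 in Empty and 0.05 in NeuT. CTH, which makes cysteine from cystathionine, rose 1.78-fold in Empty (edgeR adjusted p = 0.0150) and 3.99-fold in NeuT (edgeR adjusted p = 2e-06). CHAC1, which breaks glutathione down, held 2.36 and 2.32 CPM in untreated and 28.2 and 51.6 CPM in treated NeuT, a rise of 17.1-fold (log2 4.09, SE 0.422, edgeR adjusted p = 0.0175). In Empty it held 2.04 and 1.40 CPM untreated and 13.9 and 9.96 CPM treated, which was not called (log2 2.77, SE 0.453, edgeR adjusted p = 0.175).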

How the data were processed

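The authors deposited raw counts per gene in the layout of featureCounts, per the file headers, and 1 table per line of their own comparison, with a log2 fold change, mean log2 expression, a test score, p-values and adjusted p-values, per the file headers. The submitters' processing notes name Trim Galore 0.5.0, FastQC 0.11.7, HISAT2 2.1.0, SAMtools 1.9, featureCounts 1.6.3, limma and hg38/GRCh38. The annotation release, strand setting and handling of multiply mapped reads are not given in the sources used here. Coordinates of genes are those of the count table.

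Columns were matched to samples by name (0 matched to none) and groups taken from titles. Symbols were found for 60261 of 60617 identifiers. Counts were fitted with edgeR 4.0.16 (R 4.3.3): filterByExpr (minimum count 10, minimum total 15), TMM, robust quasi-likelihood, 1 coefficient per group, 8 libraries. The SE is the size of the log2 change over the square root of F. A permutation test of 2 libraries against 2 cannot reach 0.05, so every test borrows its spread from all genes. On simulated counts the script recovered 95% of changes of log2 1 in Empty (17217 genes), 93% in NeuT (17259 genes) and 91% in the interaction (17223 genes). There were 15, 6 and 21 false calls beside 200 changed genes. Only genes with a mean over 1 CPM were changed, all groups shared a baseline mean, and the spread was estimated without the robust option. These shares are not the power for a carrier: in Empty, log2 1.23 (SLC7A11) and 1.10 (SLC1A4) were not called.

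The 10 carriers, the 5 further gene lists and the 2 motifs were chosen with earlier results of these data known. Every carrier is named; from each list, the called gene with the largest rise and fall per drug comparison among those with a mean of at least 50 counts, plus ATF4 and DDIT3. Alternatives were RLE size factors, total counts, no filter, a minimum of 10 counts in each library, DESeq2 1.42.0, limma-voom (limma 3.58.1), no robust estimation, a replicate block, the 4 compared libraries alone, and each library left out. With 1 library left in a group, it is assumed to vary like the others.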

Additional observations from a re-analysis of the deposited data

How the results depend on the processing

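In Empty, where edgeR called 1 of the 10 carriers, DESeq2 called 3, edgeR without robust estimation 3, limma-voom 2, total counts 2, no filter on low counts 5 and the 4 Empty libraries alone 5; among all genes the 60 calls became 122, 59, 44, 68, 282 and 205 in that order. With each library left out the counts ranged from 0 to 0, and those of all genes from 9 to 37. In NeuT the 9 calls became 6 to 9 under the alternatives that left out none of the compared libraries, while the 533 calls among all genes became 185 to 1000. With a library left out, the calls among all genes moved over a wider range still, and those of SLC7A1, SLC38A1 and SLC38A2 were lost in some fits. The interaction, with 0 calls, gave 3 with DESeq2, 7 with no filter and 0 to 8 with each library left out. Between untreated lines there were 8 calls among 7423 of all genes, and under JG-98 6 calls among 7380. For both, what changed with a library left out is given above for single carriers. Of 612 values of single genes under alternatives, 540 kept their side of the threshold, 37 passed it newly, 35 lost it and none that was called changed sign. Replicate numbers were tried as a block, giving 1, 9, 0, 8 and 6 calls in the same order; replicate differences of pairs of groups correlated with r from -0.101 to 0.244 over 9551 genes. The 0.244 was between the 2 treated groups, which the comparison of the lines under JG-98 uses; not every pair was over 0.1, so the libraries were treated as unpaired. With 2 libraries a group, the cause of the differences between tools was not tested. SLC43A1 lay near the floor of 3 counts in all libraries at 0 to 12 counts, and the effect of depth on the carriers was not tested.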

Other observations

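Among the other plasma membrane carriers the lines differed without a drug change being called; these genes were chosen after their values were seen. SLC6A15, a sodium-dependent carrier of branched-chain amino acids and proline, held 54.7 and 55.2 CPM in untreated Empty and 221 and 213 CPM in untreated NeuT (3.95-fold higher, SE 0.0683 on the log2 scale, edgeR adjusted p = 1e-12). With JG-98 it held 55.5 and 54.1 CPM in Empty and 223 and 260 CPM in NeuT. SLC6A14, a carrier of neutral and cationic amino acids, held 48.6 and 50.7 CPM in untreated Empty and 130 and 127 CPM in untreated NeuT (2.58-fold higher, SE 0.0671, edgeR adjusted p = 5.5e-11). SLC7A2, the arginine carrier CAT2 and a relative of SLC7A1, was 4.67-fold higher in untreated NeuT (18.6 and 16.1 against 3.45 and 3.98 CPM, edgeR adjusted p = 0.00312). Its treated NeuT libraries held 30.2 and 50.9 CPM, a change of log2 1.22 (SE 0.279) that was not called (edgeR adjusted p = 0.112). SLC7A7 and SLC7A6, light chains that exchange cationic and neutral amino acids, were lower in untreated NeuT, by 3.38-fold (edgeR adjusted p = 0.00069) and 1.34-fold (edgeR adjusted p = 0.0005). SLC7A7 was low in both lines, with 71 and 50 counts in untreated Empty and 15 and 19 counts in untreated NeuT. Of the exonic bases of SLC7A6, 55.6% are shared with other genes. Of the 11 tested carriers of this list 5 were higher and 2 lower in untreated NeuT, beside 1 higher and 7 lower among the 10 carriers described first and 21.2% higher and 20.8% lower among all tested genes; the 2 lists were not tested against each other.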
